A study of Homo sapiens with 6 samples.

Results

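The genes described here are 39 transcripts of glucose use and of the hypoxia response, measured in K562 cells with and without an inhibitor of the Mediator kinases. They were chosen by name and comprise 19 genes of glucose transport and glycolysis and 20 further targets of the hypoxia-inducible factors (HIF) outside that pathway. Probe sets carrying exactly 1 platform symbol among the 39 numbered 94 and covered 38 genes, and CA9 was not analysed here. Of these, 76 probe sets of 37 genes were bright enough to be tested, out of 27307 probe sets and 12810 named genes in the whole table. The gene left out was ADM, a vasodilator peptide, at a log2 signal of 2.48. The limit was 3.49, the median over all probe sets, and a gene was read from its brightest tested probe set.

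K562 is an established cell line from a chronic myelogenous leukaemia. The 3 control wells received DMSO, the vehicle, for 3 h, and 3 wells received CA at 25 nM for 3 h. CA stands beside cortistatin A in the series title. This steroidal alkaloid is known to block CDK8 and CDK19, the kinases of the Mediator complex. Both groups grew in RPMI-1640 with 10% FBS at 500000 to 800000 cells per mL. The labels mention no hypoxia and give no oxygen level, no passage and no batch, and they do not say that the wells came from separate cultures, so p values measure the spread between these wells. Of 10 listed K562 markers, 8 had a probe set and all 8 were above the limit, among them the embryonic globin genes HBE1 at 13.27 and HBZ at 12.04. The arrays correlated at 0.997 with one another, and 1 of them, CA array 1, scored -19.0 on principal component 2, against 0.338 to 7.20 for the rest. Of 17 listed markers of other cell types with a probe set, 10 were above the limit, with EPCAM at 10.46 and CD3D at 9.07 the brightest. Summed over a list, K562 markers were at 73.28 to 73.87 in DMSO and 74.05 to 74.31 in CA, and the 2 B cell markers at 7.09 to 7.30 and 7.39 to 7.66, without overlap. The other 5 lists overlapped, and the part of these levels in the results was not tested.

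HIF is a pair of proteins, an oxygen-regulated alpha subunit (HIF1A or EPAS1) and ARNT. When oxygen is present, the EGLN prolyl hydroxylases mark the alpha subunit for ubiquitination by VHL. When oxygen is scarce, the pair accumulates and binds the short element ACGTG or GCGTG near genes for glucose uptake, glycolysis, blood vessel growth and mitochondrial turnover. In other cells CDK8 has been described as a co-activator at HIF targets and at glycolytic genes, so the comparison asks whether these transcripts differed after a short exposure to the inhibitor.

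The bases before the transcription start are shown first for the 4 members with the smallest p and for LDHA and PGK1, glycolytic genes known as HIF targets. Each line gives the 250 bases before a RefSeq start on GRCh38.p14, 5′ to 3′ along the gene, with every ACGTG or GCGTG on either strand in capitals; on the opposite strand these read CACGT and CACGC. KDM3A lies at chr2:86441121-86441370 on the plus strand, HK2 at chr2:74833877-74834126 (plus), EGLN3 at chr14:33951075-33951324 (minus), EGLN1 at chr1:231422288-231422537 (minus), LDHA at chr11:18394313-18394562 (plus) and PGK1 at chrX:78103998-78104247 (plus). For KDM3A, HK2 and LDHA the table holds 2 starts each, and the one with the lower coordinate is shown.
KDM3A: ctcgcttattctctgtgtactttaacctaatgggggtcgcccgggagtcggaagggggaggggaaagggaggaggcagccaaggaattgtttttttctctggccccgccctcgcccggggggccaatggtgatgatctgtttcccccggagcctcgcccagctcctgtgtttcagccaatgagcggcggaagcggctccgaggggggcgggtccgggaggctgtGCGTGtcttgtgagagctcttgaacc
HK2: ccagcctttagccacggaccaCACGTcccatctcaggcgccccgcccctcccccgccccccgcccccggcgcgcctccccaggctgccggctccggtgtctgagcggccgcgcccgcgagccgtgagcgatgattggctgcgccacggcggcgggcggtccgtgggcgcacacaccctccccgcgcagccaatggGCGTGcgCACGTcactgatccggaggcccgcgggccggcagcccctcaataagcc
EGLN3: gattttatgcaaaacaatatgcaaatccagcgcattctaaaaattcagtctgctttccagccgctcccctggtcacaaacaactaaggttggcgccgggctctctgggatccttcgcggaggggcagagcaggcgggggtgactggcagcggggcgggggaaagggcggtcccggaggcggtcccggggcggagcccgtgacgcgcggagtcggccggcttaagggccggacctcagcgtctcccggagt
EGLN1: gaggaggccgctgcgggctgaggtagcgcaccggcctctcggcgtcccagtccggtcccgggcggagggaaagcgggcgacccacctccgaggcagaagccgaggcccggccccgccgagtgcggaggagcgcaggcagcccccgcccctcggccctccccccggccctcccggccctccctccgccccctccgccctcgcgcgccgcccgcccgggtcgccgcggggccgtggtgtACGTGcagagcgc
LDHA: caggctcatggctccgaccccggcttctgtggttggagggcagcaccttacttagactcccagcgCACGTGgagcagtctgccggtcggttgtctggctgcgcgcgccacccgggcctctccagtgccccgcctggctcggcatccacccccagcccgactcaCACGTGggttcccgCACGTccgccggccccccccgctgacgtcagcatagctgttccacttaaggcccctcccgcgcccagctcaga
PGK1: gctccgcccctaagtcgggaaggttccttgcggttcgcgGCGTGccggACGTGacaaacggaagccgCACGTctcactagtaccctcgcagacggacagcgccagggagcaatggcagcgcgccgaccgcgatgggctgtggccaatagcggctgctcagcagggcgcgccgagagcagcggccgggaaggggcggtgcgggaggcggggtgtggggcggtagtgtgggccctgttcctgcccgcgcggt
The KDM3A window held 1 match, at -26 to -22 from the start, the EGLN1 window 1, at -13 to -9, and the EGLN3 window 0. HK2 held 3, at -229 to -225, -55 to -51 and -48 to -44. LDHA held 5 and PGK1 3. In LDHA 4 of the 5 come from CACGTG at -185 and -87, which reads ACGTG on both strands and is also the E-box bound by MYC and MondoA.

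RefSeq windows were found for 33 of the 39 genes, 57 windows in all because some genes have several starts. ACGTG or GCGTG on either strand was present in 36 of the 57 (63.2%), against 43.2% of all 35116 windows of the same length. It was in 21 of 40 windows of the glycolytic genes (52.5%) and in 15 of 17 of the other HIF targets (88.2%). Counted by gene, with several starts for many glycolytic genes, it was near at least 1 start of 15 of 18 glycolytic genes (83.3%), of 13 of 15 other HIF targets (86.7%) and of 47.4% of all 27305 genes. CACGTG was in 9 of the 57 (15.8%), against 6.34% of all windows. A match is a stretch of letters and was not examined for binding.

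Glycolytic and hypoxia transcripts, like most measured genes, stayed within narrow limits after CA. None of the 37 genes was called at an adjusted p under 0.05 by limma, where 0.0859% of all genes were called (0.0625% higher and 0.0234% lower in CA), and adjusted p values ran from 0.328 to 0.992. With a prior variance that follows the signal, 0 of the 37 were called as well, against 1.23% of all genes (0.734% higher and 0.492% lower). At an unadjusted p under 0.05 there were 4 genes, HK2 and EGLN3 higher and KDM3A and EGLN1 lower in CA. That is 10.8% of the members, beside 8.61% of all genes (3.59% higher and 5.02% lower). The count depended on the setting: it was 9 of 37 (24.3%) beside 11% of all genes with the signal-dependent variance, and 8 of 34 (23.5%) beside 13.2% with a filter at the 75th percentile. Fitted changes ran from -0.18 to 0.18 on the log2 scale with a median of 0.014, beside -0.012 for all genes. On the probe set read for each gene, the 95% confidence interval of all 37 excluded a change of 1.5-fold in either direction. It did so for 12642 of the 12810 genes. The widest of these bounds were those of DDIT4 (1.38-fold), NDRG1 (1.27-fold) and EGLN3 (1.25-fold). Dimmer probe sets of EGLN3, PGK1 and WSB1 did not exclude it, with log2 intervals that reached 0.587, -0.678 and -0.732.

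**Figure D1:**
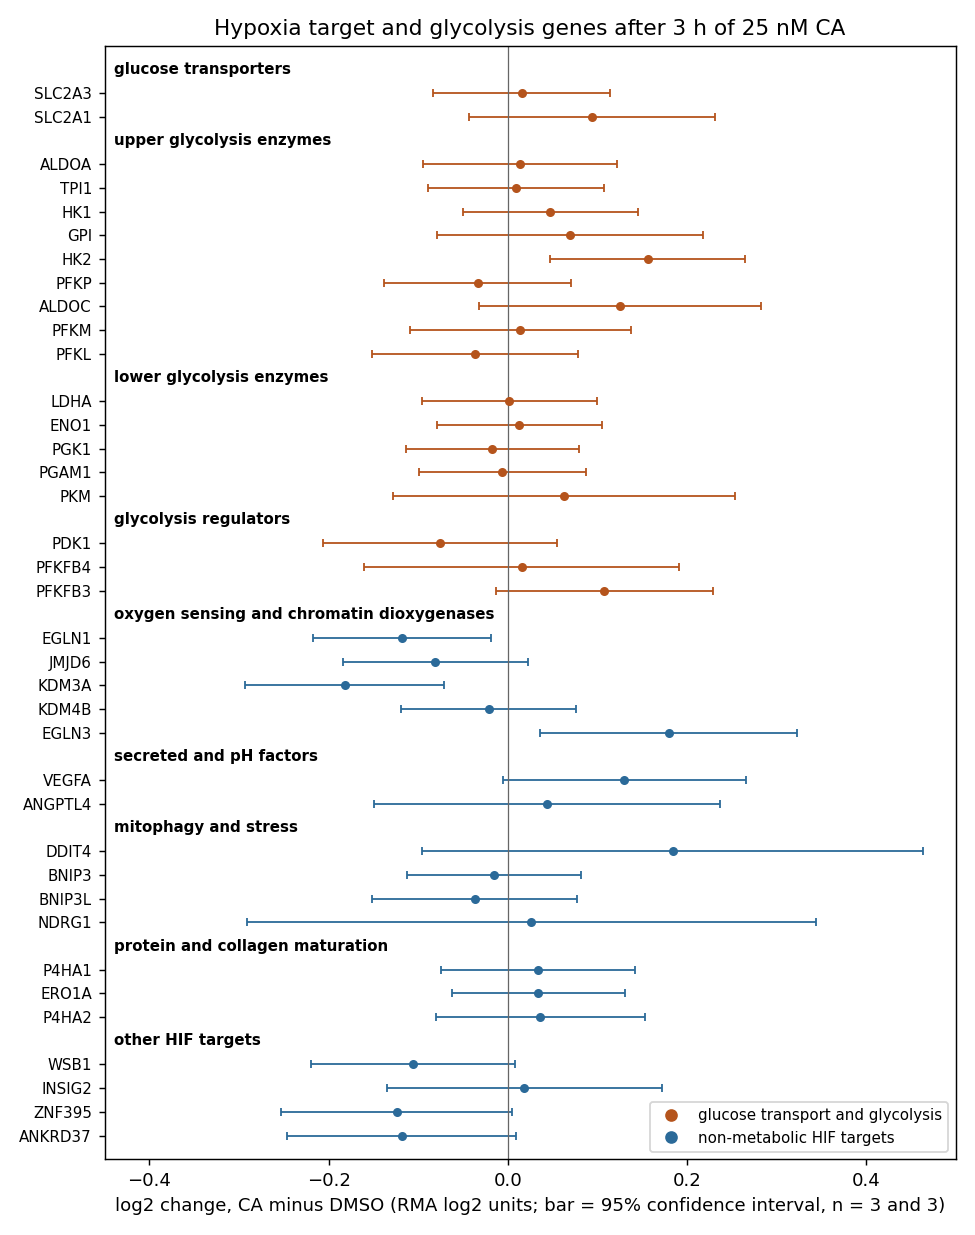
Fitted log2 change (CA minus DMSO, RMA log2 units) of the 37 tested genes by role, with 95% confidence intervals from limma over 3 arrays a group. Points lie between -0.18 and 0.18, and the intervals of HK2, EGLN3, KDM3A and EGLN1 do not include 0, although none of the 37 passed after adjustment.

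Glucose enters cells through facilitative transporters. SLC2A3 encodes GLUT3, a high-affinity transporter, and its signal was 10.09, 10.14 and 10.08 on the DMSO arrays and 10.12, 10.13 and 10.11 on the CA arrays. The groups overlapped, with a change of 0.016 (95% confidence interval -0.083 to 0.11, adjusted p = 0.942). SLC2A1 encodes GLUT1, the widely expressed transporter that HIF is known to raise, and it was 7.52, 7.55 and 7.53 on the DMSO arrays and 7.60, 7.73 and 7.55 on the CA arrays. CA array 2 was the highest of the 6 and CA array 3 lay within the DMSO range. Its change was 0.094 (95% confidence interval -0.043 to 0.23, adjusted p = 0.681), and without CA array 2 it was 0.042.

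Among the 9 enzymes that carry glucose to triose phosphates, HK2 had the largest difference. It encodes the inducible hexokinase that phosphorylates glucose at the mitochondrial surface. HK2 signal was 8.90, 8.83 and 8.89 on the DMSO arrays and 9.07, 9.02 and 8.99 on the CA arrays, so every CA array lay above every DMSO array. The change was 0.16 (95% confidence interval 0.048 to 0.26, adjusted p = 0.366), or 1.11-fold higher in CA, and this probe set was the only 1 of 3 for HK2 with non-overlapping groups, the others having -0.077 and 0.034. The mean of the 3 probe sets gave 0.038. HK1, the constitutive hexokinase, was 10.62 ± 0.031 in DMSO and 10.67 ± 0.018 in CA (SD, n = 3). Its groups did not overlap either, and the fitted change was 0.048.

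ALDOC, an aldolase otherwise prominent in brain, was 7.75, 7.91 and 7.96 on the DMSO arrays and 8.05, 8.00 and 7.96 on the CA arrays. DMSO array 1 was the lowest of the 6, and CA array 3 lay between DMSO arrays 2 and 3. The change was 0.13 (95% confidence interval -0.032 to 0.28, adjusted p = 0.626), and without DMSO array 1 it was 0.064. ALDOA, the aldolase of muscle and red cells, was 12.46, 12.46 and 12.55 on the DMSO arrays and 12.52, 12.47 and 12.51 on the CA arrays, with groups that overlapped and a change of 0.014 (95% confidence interval -0.095 to 0.12, adjusted p = 0.956). The remaining enzymes of this stretch were GPI, glucose-6-phosphate isomerase (0.070), TPI1, triose phosphate isomerase (0.0090), and the 3 phosphofructokinase genes that commit sugar to glycolysis, PFKM (0.014), PFKP (-0.033) and PFKL (-0.036). PFKL had the lowest value among the enzymes and was 6.49, 6.51 and 6.39 on the DMSO arrays and 6.43, 6.42 and 6.43 on the CA arrays. Its CA arrays lay inside the DMSO range (adjusted p = 0.871).

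On the probe set read for each gene, the enzymes from phosphoglycerate to lactate had the smallest median absolute change of the roles, 0.013. Over all tested probe sets, PGK1 ranged from -0.21 to 0.14 and ENO1 from -0.13 to 0.11. LDHA, lactate dehydrogenase A and a textbook HIF target, was 12.82, 12.88 and 12.85 on the DMSO arrays and 12.83, 12.87 and 12.87 on the CA arrays. The groups overlapped throughout and the change was 0.0019 (95% confidence interval -0.10 to 0.10, adjusted p = 0.992). PGK1, which makes ATP from 1,3-bisphosphoglycerate, was 11.96 ± 0.020 in DMSO and 11.94 ± 0.025 in CA (SD, n = 3), a change of -0.017. PGAM1, phosphoglycerate mutase, had -0.0063, and ENO1, enolase, 0.013. PKM, pyruvate kinase, had 0.063 with a wider interval of -0.13 to 0.25. Of the 5 genes 0 had an unadjusted p under 0.05, beside 8.61% of all genes. Their median was 0.0019 and 3 fitted values were above 0. GAPDH, which is no member, stood at 12.88 ± 0.0046 in DMSO and 12.88 ± 0.0046 in CA (SD, n = 3), a change of 0.0014.

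Regulators of glycolytic flux went in different directions, with 95% confidence intervals that reached to both sides of no change. PFKFB3 makes fructose 2,6-bisphosphate, the activator of phosphofructokinase, and was 5.93, 6.08 and 6.03 on the DMSO arrays and 6.13, 6.12 and 6.11 on the CA arrays. All CA arrays were above all DMSO arrays, and the fitted change was 0.11 (95% confidence interval -0.013 to 0.23, adjusted p = 0.579), or 0.067 without DMSO array 1. PFKFB4, a related enzyme, had 0.016 with overlapping groups. PDK1, the kinase that turns off pyruvate dehydrogenase and diverts pyruvate from mitochondria, was 6.93, 7.02 and 6.92 on the DMSO arrays and 6.80, 6.91 and 6.93 on the CA arrays. It had the lowest fitted value of the glycolytic genes, -0.075 (95% confidence interval -0.21 to 0.055, adjusted p = 0.737), and CA array 3 lay within the DMSO range. Without CA array 1 it was -0.036, above PFKP, and without DMSO array 2 it was -0.044. The other tested PDK1 probe set overlapped between groups, at 0.031.

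Among 5 oxygen-dependent dioxygenases, KDM3A and EGLN1 were lower and EGLN3 higher in CA at an unadjusted p under 0.05, which 8.61% of all genes had. KDM3A, a histone H3 lysine 9 demethylase, was 7.87, 7.85 and 7.76 on the DMSO arrays and 7.65, 7.66 and 7.63 on the CA arrays. All CA arrays lay below all DMSO arrays, and the CA values were closer together. Its change of -0.18 (95% confidence interval -0.29 to -0.071, adjusted p = 0.328), 1.13-fold lower in CA, had the smallest p of the 37 genes. EGLN1 encodes PHD2, the main prolyl hydroxylase acting on HIF alpha in normal oxygen, and was 8.96, 9.03 and 9.00 on the DMSO arrays and 8.88, 8.89 and 8.87 on the CA arrays. Again every CA array was below every DMSO array, with -0.12 (95% confidence interval -0.22 to -0.019, adjusted p = 0.447). The other tested EGLN1 probe sets overlapped between groups, at -0.029 and -0.035.

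EGLN3 encodes PHD3, a hydroxylase that HIF induces, and went the other way. It was 5.75, 5.82 and 5.87 on the DMSO arrays and 6.09, 5.92 and 5.96 on the CA arrays, with CA array 1 the highest and no overlap. The change was 0.18 (95% confidence interval 0.036 to 0.32, adjusted p = 0.424), 1.13-fold higher in CA. Its second, dimmer probe set had groups that did not overlap and a change of 0.35, and the mean of both gave 0.27 (adjusted p = 0.201). JMJD6, a Jumonji domain hydroxylase, had -0.081 with CA below DMSO on every array, and KDM4B, a demethylase of the same histone residue as KDM3A, had -0.021 with overlap. On the probe set read for each, the 5 genes thus had 4 fitted values below 0 and 1 above. The other tested KDM4B probe sets ran from -0.020 to 0.095.

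**Figure D2:**
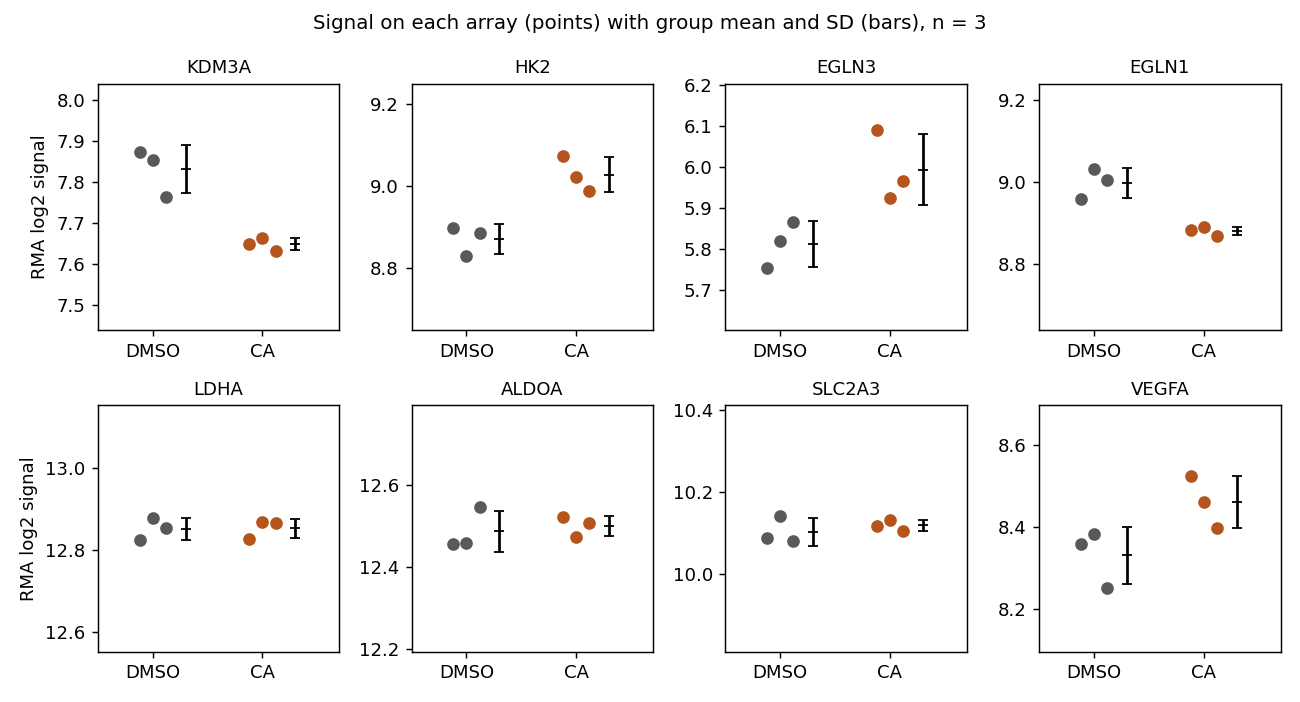
RMA log2 signal of 8 genes on each array (points) with group mean and SD (bars, n = 3); every panel spans 0.6 log2 units. In the upper row the groups do not overlap for KDM3A, HK2, EGLN3 and EGLN1; in the lower row LDHA, ALDOA and SLC2A3 overlap, while VEGFA does not.

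VEGFA, the growth factor for blood vessels, was 8.36, 8.38 and 8.25 on the DMSO arrays and 8.52, 8.46 and 8.40 on the CA arrays. Every CA array was above every DMSO array on this probe set, with 0.13 (95% confidence interval -0.0053 to 0.27, adjusted p = 0.553). The other 3 VEGFA probe sets overlapped between groups, at -0.023, -0.086 and 0.035. ANGPTL4, a secreted inhibitor of lipoprotein lipase, had 0.044, and its other tested probe set 0.20. DDIT4 encodes REDD1, an inhibitor of mTORC1, and was 10.58, 10.30 and 10.28 on the DMSO arrays and 10.77, 10.47 and 10.47 on the CA arrays. Array 1 of each group was the highest of its group and the groups overlapped. The fitted change of 0.18, the highest of the members with all 6 arrays, had an interval of -0.10 to 0.46 (adjusted p = 0.696). Without CA array 1 it was 0.084, below HK2 and EGLN3, and without DMSO array 1 it was 0.28. NDRG1, a stress-responsive gene, also varied between arrays, with 5.05 ± 0.19 in DMSO and 5.07 ± 0.20 in CA (SD, n = 3). The mitophagy receptor genes BNIP3 (-0.015) and BNIP3L (-0.037) were slightly lower in CA, within their error.

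Genes of protein maturation had near-equal small values on the probe set read for each. P4HA1, the catalytic subunit of collagen prolyl hydroxylase, was 8.06, 8.14 and 8.14 on the DMSO arrays and 8.13, 8.12 and 8.19 on the CA arrays, with overlap and 0.034 (95% confidence interval -0.074 to 0.14, adjusted p = 0.871). P4HA2, its paralogue, had 0.037 and ERO1A, the oxidase that drives disulfide formation in the endoplasmic reticulum, 0.034. Other tested probe sets had -0.13 for P4HA2, and 0.066 and 0.0079 for ERO1A. Of the last 4 targets, 3 lay lower on every CA array than on any DMSO array, as did 9.95% of all genes. WSB1, a substrate receptor of a ubiquitin ligase, was 9.27, 9.32 and 9.29 on the DMSO arrays and 9.13, 9.24 and 9.20 on the CA arrays, a change of -0.11 (95% confidence interval -0.22 to 0.0079, adjusted p = 0.562). Its second brightest probe set had -0.084, also without overlap, and 2 dim ones had -0.012 and -0.32 with overlap. ZNF395, a zinc finger protein, was 6.51, 6.48 and 6.54 on the DMSO arrays and 6.46, 6.30 and 6.41 on the CA arrays, a change of -0.12 (95% confidence interval -0.25 to 0.0051, adjusted p = 0.553), or -0.080 without CA array 2. Its other tested probe set had 0.031. ANKRD37, an ankyrin repeat protein known as a HIF target, had -0.12, and INSIG2, which restrains sterol synthesis, had 0.018 with overlap.

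Set against each other, the glycolytic genes had a median change of 0.014 and the non-metabolic HIF targets one of 0.0015, a difference of 0.012 on the log2 scale. Fitted values were above 0 for 14 of 19 glycolytic genes and for 9 of 18 HIF targets, while 56.5% of all genes were below 0. Groups did not overlap for 3 glycolytic genes, all higher in CA (HK1, HK2 and PFKFB3), beside 6.14% of all genes higher and 9.95% lower. Among the HIF targets 2 were higher without overlap (EGLN3 and VEGFA) and 6 lower (KDM3A, EGLN1, JMJD6, WSB1, ZNF395 and ANKRD37). Together that is 11 of 37, where 16.1% of all genes had groups that did not overlap. Absolute changes had a median of 0.033 in the glycolytic genes, 0.062 in the HIF targets and 0.053 over all genes.

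On single arrays, each gene was taken relative to its own mean over the 6 arrays. The median over the glycolytic genes was -0.026, 0.0019 and -0.0052 on the DMSO arrays and 0.022, 0.015 and 0.010 on the CA arrays. Over the HIF targets it was 0.010, 0.025 and 0.021 on the DMSO arrays and 0.0073, -0.0090 and -0.015 on the CA arrays. The groups did not overlap in either case, the first being higher and the second lower in CA, by 0.025 and -0.024. The same median over all measured genes was also lower in CA, by -0.010, with overlap of the groups. For the HIF targets the fall in this score differed in sign from the median of their fitted changes, 0.0015, with 9 of 18 above 0. The sign of the difference between the median changes depended on the probe sets, being -0.0045 with no filter on dim probe sets, and no test was made of these scores.

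Of 4 controls for the labelling reaction that were read singly, 3 gave a lower 3' signal relative to 5' on every CA array. The 3' minus 5' difference of the actin control was 1.45, 1.49 and 1.40 in DMSO and 1.14, 1.18 and 1.31 in CA (exact permutation p = 0.1, the smallest that 3 against 3 arrays allow, 2-sided). For the spiked-in controls dap and thr it was lower on every CA array too, with mean differences of -0.24 and -0.26. The spiked-in controls lys and phe were not read singly. Averaged over dap, lys, phe and thr, CA minus DMSO was -0.21 for the 3' and -0.041 for the 5' probe sets. The GAPDH control, a glycolytic transcript, gave 0.62, 0.64 and 0.65 in DMSO and 0.63, 0.58 and 0.60 in CA, and its groups overlapped. The mean of the actin, dap and thr differences was 2.29 to 2.40 in DMSO and 2.02 to 2.17 in CA, so it split the groups fully. A model with this mean beside treatment cannot tell the 2 apart. With that mean in the model, the HK2 change was 0.017, that of EGLN3 0.055, that of KDM3A -0.15 and that of EGLN1 -0.10. The median of the glycolytic genes was then 0.038 and that of the HIF targets -0.030. With arrays scaled to the 3' spiked-in controls, which adds 0.21 to every change and takes the median of all genes to 0.20, HK2 had 0.37, EGLN3 0.39, KDM3A 0.027 and EGLN1 0.091, so that all 37 members were above 0, and 7 members were called, all higher, among 1383 called genes.

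**Figure D3:**
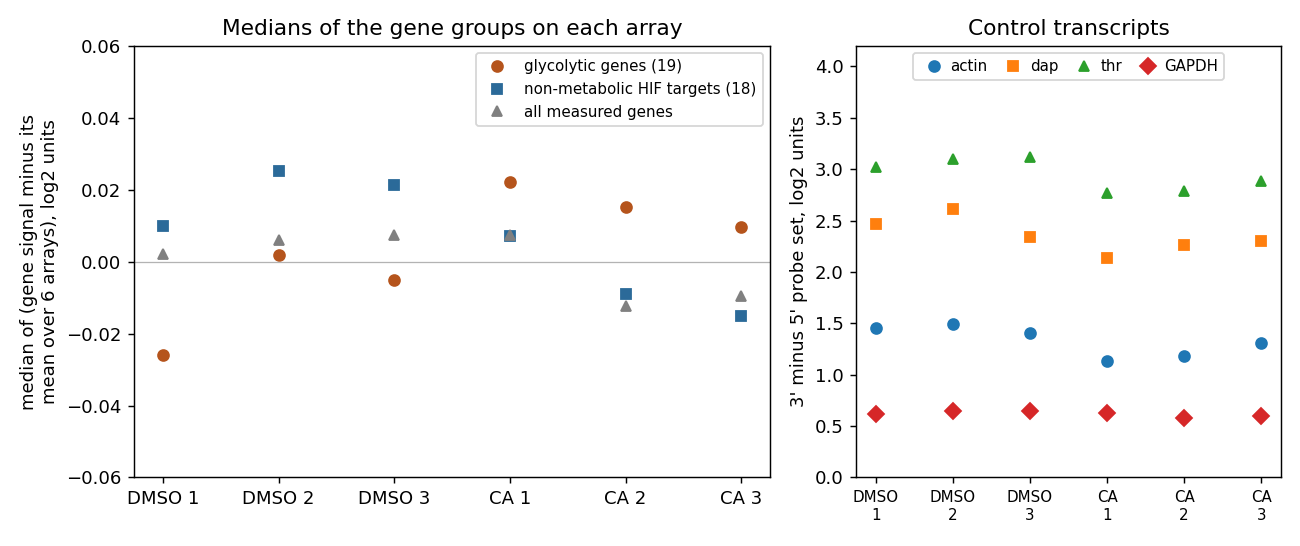
Left, median over the glycolytic genes (circles), the non-metabolic HIF targets (squares) and all measured genes (triangles) of each gene's log2 signal minus its mean over the 6 arrays, by array. Right, 3' minus 5' log2 difference of control transcripts by array; actin, dap and thr are lower on the CA arrays, and GAPDH overlaps between groups.

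Probe sets of 1 gene did not always point the same way. Of 22 genes with more than 1 tested probe set, 13 had fitted values of 1 sign and 9 of both. PGK1 ranged from -0.21 to 0.14 over 5 probe sets and ENO1 from -0.13 to 0.11 over 3. Over all 76 member probe sets 0 were called by limma, where 0.0952% of all tested probe sets were, and 7 had an unadjusted p under 0.05, which is 9.21% beside 9.31% of all tested probe sets. Of the 37 probe sets that represented a gene, 22 are marked by their names as matching several transcripts, among them those of KDM3A and EGLN3.

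Lists around the 2 gene groups were read in the same fit. They were chosen with earlier results of these data known, so counts of called genes in them are a description only. Of all genes, 0.0859% were called. Of 17 measured genes of the HIF machinery 1 was called, the repressor gene BHLHE40, which is also a hypoxia target and counted in both lists. It rose from 8.14 ± 0.11 to 8.92 ± 0.051 (SD, n = 3), a change of 0.78 (95% confidence interval 0.62 to 0.94, adjusted p = 0.0235). Among the others, named after their values were seen, HIF1A had -0.029, ARNT -0.13, EPAS1 0.19, VHL 0.21 and the co-activator CREBBP -0.18, none of them called. The machinery had a median of -0.014, with 11 of 17 below 0. Of 20 further hypoxia targets BHLHE40 was the 1 called, and their median was -0.025.

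Other routes of glucose carbon held no called gene, beside 0.0859% of all genes called and 8.61% with an unadjusted p under 0.05. Of 15 further glycolysis and lactate genes 0 were called and 0 had an unadjusted p under 0.05, with a median of 0.0014. Of 27 genes of pyruvate entry and the citric acid cycle 0 were called and 2 had an unadjusted p under 0.05. These were PDP1, the phosphatase that reactivates pyruvate dehydrogenase, at -0.37 (adjusted p = 0.459), and OGDH, the 2-oxoglutarate dehydrogenase gene, at 0.14 (adjusted p = 0.530). Of 6 pentose phosphate genes 0 were called and PGD, 6-phosphogluconate dehydrogenase, had 0.12 (adjusted p = 0.513).

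Of the 6 genes in the list of glucose sensors and MYC, likewise chosen with earlier results known, 2 were called, beside 0.0859% of all genes. TXNIP, which restrains glucose uptake, fell from 9.56 ± 0.032 to 8.39 ± 0.019 (SD, n = 3), a fitted change of -1.17 (adjusted p = 0.00115). MYC, known to activate glycolytic genes, rose from 11.22 ± 0.0072 to 11.72 ± 0.022 (SD, n = 3), a fitted change of 0.50 (adjusted p = 0.0235). The calls of BHLHE40 and MYC were lost without any 1 of the 6 arrays, at adjusted p between 0.0917 and 0.198, while TXNIP was called each time. With the control difference in the model, which split the groups fully, none of the 3 was called (adjusted p = 0.789 for each). The fitted changes were then -1.11 for TXNIP, 0.68 for BHLHE40 and 0.54 for MYC.

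**Figure D4:**
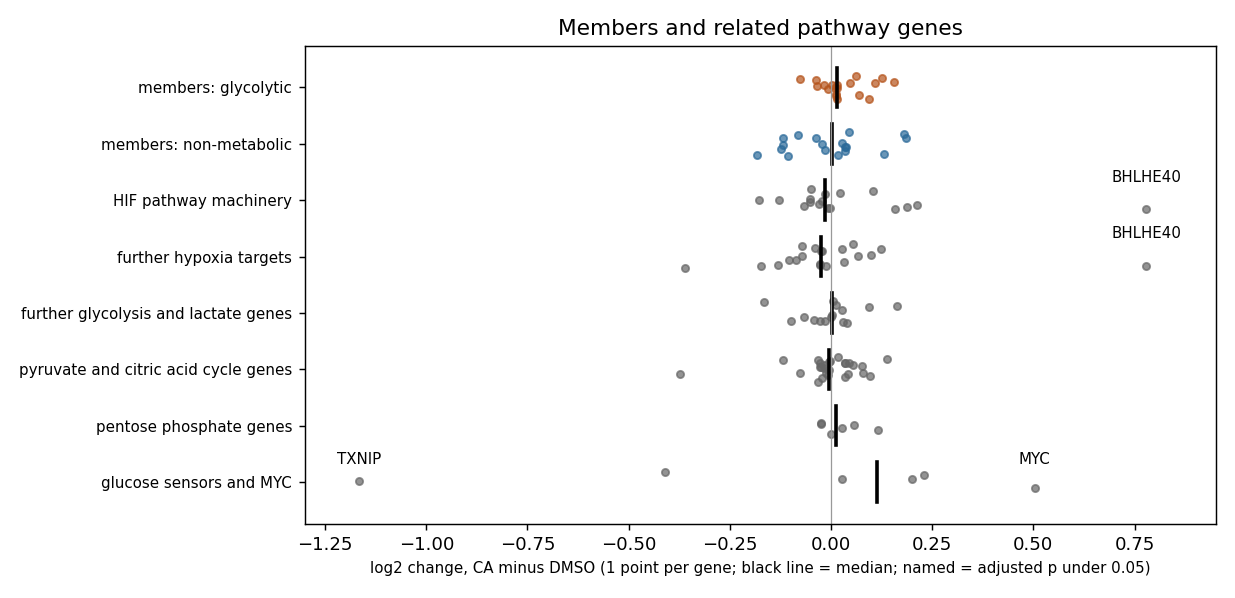
Fitted log2 change (CA minus DMSO) of each member and of each gene in the related lists, 1 point a gene, with the median as a black line. Members lie within -0.18 and 0.18; the named points, BHLHE40 (in 2 lists), MYC and TXNIP, passed an adjusted p of 0.05.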

How the data were processed

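Total RNA (100 ng) from 3 DMSO and 3 CA wells was labelled with a 3' IVT kit and hybridised to Human U133 Plus 2.0 arrays, per the labels. The authors deposited log2 values per probe set, made with RMA in affy per the submitters' processing notes, with versions not given in the sources used here. RMA gives all arrays 1 distribution, which hides any shift common to most transcripts.

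The 62 control probe sets were left out of tests, and probe sets with a 6-array mean at or above 3.49 were kept. Symbols came from the platform annotation (41091 probe sets with 1, 1801 with several and 11721 with none; 41037 matched RefSeq by gene ID). CA was compared with DMSO with limma 3.58.1 in R 4.3.3, 2-sided, with Benjamini-Hochberg adjustment over all 27307 probe sets; called means an adjusted p under 0.05. Precision was limited by the 6 arrays (median standard error 0.066). The members and lists were chosen with earlier results of these data known. Genes described with every array were those with an unadjusted p under 0.05, the brightest of each role, and the 2 highest and 2 lowest changes of each group; arrays or group means of SLC2A1, PFKFB3, HK1, PGK1 and NDRG1 were added after their values were seen. From each further list the called genes were named, or else up to 3 by smallest p, or else the brightest. Alternatives were the variance prior, filters, normalisations, control scalings, array weights, a replicate block, a labelling covariate, probe set choices and leaving out each array.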

Additional observations from a re-analysis of the deposited data

How the results depend on the processing

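No member was called in 17 of 18 alternatives; scaled to the 3' spiked-in controls, 7 were, all higher (ALDOC, EGLN3, GPI, HK2, PFKFB3, SLC2A1 and VEGFA), and so were 1383 genes in all, 1379 of them higher, against 11 genes, 8 higher, in the values as deposited. There the glycolytic median was 0.22 and that of the HIF targets 0.21, and the related lists had 16 calls. The scaling adds 0.21 to every change, so all 14 members below 0 as deposited turned positive, among them EGLN1 (0.091), KDM3A (0.027), PDK1 (0.13), WSB1 (0.10), PFKL (0.17) and ZNF395 (0.085). With 5' controls the medians were 0.055 and 0.043, with PFKL at 0.0050, and with array medians centred 0.030 and 0.017. The labelling covariate, which split the groups fully, gave 0.038 and -0.030, a difference of 0.068. With it 0 genes were called in all and 0 in the related lists (TXNIP -1.11, BHLHE40 0.68 and MYC 0.54, near their values as deposited). It turned the sign of PDK1 (0.13), DDIT4 (-0.18), ALDOA (-0.046), PFKL (0.044) and OGDH (-0.044). The HIF target median and the difference were 0.018 and -0.0045 with no filter, -0.015 and 0.029 with a filter at the 75th percentile, and -0.018 and 0.033 without shared probe sets. The difference was 0.019 with array weights and 0.029 with the mean of a gene's probe sets, where OGDH was -0.058. The cause of these shifts was not tested.

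Calls in the related lists numbered 3 as deposited, 5 with the mean-dependent variance (157 genes in all), 1 with no filter (2 in all) and 0 without shared probe sets (0 in all); the stricter filter gave 4, and 93 genes in all. Without each array in turn 0 members, 1 gene of the related lists and 1 to 2 genes in all were called, the glycolytic median ran from 0.0041 to 0.018, that of the HIF targets from -0.032 to 0.0072, and the difference from 0.0075 to 0.041; without DMSO array 1 the HIF target median was -0.032. LDHA ran from -0.012 to 0.015, ALDOA from -0.0017 to 0.043 and GAPDH from -0.0012 to 0.0038, crossing 0. Without 1 array or another 29 of 37 members moved by over 1.5 times or changed sign; KDM3A, EGLN1, EGLN3, HK2, VEGFA, WSB1, JMJD6 and ANKRD37 did not.

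Same-numbered arrays shared no clear deviation (correlations -0.070, 0.010 and 0.061), and 2 of 6 arrays correlated best with their own number. The labels do not say whether the number pairs the wells, and these correlations cannot exclude it. With the replicate block 0 members, 0 genes of the related lists and 0 genes in all were called, so all 3 calls were lost, with adjusted p = 0.0690 for TXNIP, 0.360 for BHLHE40 and 0.352 for MYC; their fitted changes were the same as without it (-1.17, 0.78 and 0.50).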

Other observations

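Some member probe sets outside those that represent a gene had groups that did not overlap, as 16.1% of all genes did on the probe set read for them. PGK1 had 0.14 on 1 such probe set, with 10.62 in DMSO and 10.76 in CA. ENO1 had 0.11 on a second probe set, SLC2A3 0.088, ERO1A 0.066, ALDOA 0.11, BNIP3L -0.069 and TPI1 -0.086. These were chosen after their values were seen.

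MLXIP, which encodes the glucose sensor MondoA, had 0.20 (adjusted p = 0.355) and ARRDC4, an arrestin gene known as its target, had -0.41 (adjusted p = 0.116), both without overlap of the groups. ARRDC4 was called with the mean-dependent variance. TFRC, the transferrin receptor gene, had 0.12 and was called in that fit too.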
